A study of Mus musculus with 4 samples.

Results

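The genes described are 46 genes of the cell cycle and of DNA replication, measured in mouse tumor cells with and without interferon gamma (IFN-γ). They were fixed by name: a probe belonged to the set where the array's RefSeq identifier for it led to 1 of the 46 symbols, whatever its signal. All 46 had at least 1 probe, among 20140 genes named on the array, and 60 of the 39429 gene probes belonged to them. Of the 46 genes, 36 had 1 probe, 6 had 2 and 4 had 3.

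Cy3-labelled total RNA of each sample was hybridised to its own Agilent expression array, and the 4 arrays lay on 1 slide. The AB1-HA cells come from a BALB/c mesothelioma and were cultured for 24 h with vehicle or with IFN-γ. LLC, also labelled 3LL, is a lung carcinoma line of C57BL6 origin and had the same pair of treatments. Each line with each treatment gave 1 array, so no difference below has a replicate check, no test was possible, and the number of arrays limits the precision. The series was designed, by its title, to look for a regulator that holds back IFN-γ-inducible factors in tumor cells. The labels do not say how many cultures each RNA came from or whether RNA was pooled.

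Signals are given as scaled signals, the background-subtracted spot intensity after each array was scaled to a common 75th percentile of 1447. Differences are on the log2 scale, so that 1 is 2-fold, and a gene was counted as apart where 2 arrays differed by at least 2-fold, which is a size and not a significance. Between 57.5% and 58.2% of the gene probes of an array were well above background, the scanner's own mark, and no spot was saturated. Of the 60 probes of the cell cycle genes, 59 were well above background on all 4 arrays. The exception was the probe of Ccne2 on the LLC vehicle array. Spots that repeat a probe on the array gave the technical error. The median SD of a log2 difference was 0.062 (AB1-HA) and 0.041 (LLC) for IFN-γ against vehicle, and 0.063 and 0.041 between the lines on the vehicle and the IFN-γ arrays. This covers spot noise only, not culture, RNA or labelling. Bub1 had 10 spots, and the other 45 genes had 1 spot for the probe used. IFN-γ target genes followed the labels, with Irf1 higher by 4.44 in AB1-HA and 4.43 in LLC and Psmb9 by 6.09 and 6.55. Markers of the labelled tissues were patchy. Msln, Krt18 and Krt19 of the mesothelial markers were well above background on all 4 arrays, while Wt1, Upk3b, Lrrn4 and Calb2, and Sftpc, Sftpb, Nkx2-1, Epcam and Cdh1 of the lung epithelial markers, were on none. On the vehicle arrays Msln was 378-fold lower in LLC, while Krt8 was 172-fold and Krt18 485-fold higher there and Bnc1 at least 209-fold higher. Krt19 was also lower in LLC, at −1.69, so 3 of the 5 markers with a value were higher and 2 lower. The 10 mesothelial markers made up 0.0368% and 0.0282% of the summed scaled signal in AB1-HA and, against the labels, more in LLC, 0.0962% and 0.0725%. The 11 lung epithelial markers, of which 2 to 3 were well above background, made up 0.000226% and 0.000192% in AB1-HA. In LLC they made up less, also against the labels, at 7.27e-05% and 7.44e-05%. Singly they were split. On the vehicle arrays 2 of the 3 with a value were higher in LLC, up to 0.68 for Ager, and Aqp5 was lower, at −2.65. On the IFN-γ arrays 2 of 4 were higher, up to 1.18 for Scgb1a1, and 2 lower, down to −3.22 for Aqp5. Of these values 1 on the vehicle arrays and 2 on the IFN-γ arrays are bounds. Between 4 and 5 of 9 leukocyte markers were well above background, Ptprc not among them, and together they made up 0.00297% to 0.00353%. Endothelial markers made up 0.000994% to 0.00196%, with 2 to 3 of 6 well above background and Cdh5 and Tek on no array. Of 7 fibroblast markers, 5 to 6 were, at 0.017% to 0.0802%. The part of these markers in the differences below was not tested.

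A dividing cell passes from G1, where D-type cyclins with Cdk4 and Cdk6 and then E-type cyclins with Cdk2 phosphorylate the retinoblastoma protein, into S phase, where licensed replication origins fire. Cyclin A and cyclin B with Cdk1 then drive mitosis, and the anaphase-promoting complex ends it by degrading cyclins. Transcription follows the same order: E2F factors switch on replication genes around the start of S phase, and mitotic genes follow in G2. The DREAM complex, B-Myb and FoxM1 govern mitotic genes through promoter elements called CHR, often beside CCAAT boxes. In dividing tumor lines these genes are active together. IFN-γ is a cytokine of activated T cells and natural killer cells that slows division of many cell types. In RNA from whole cultures, fewer cells in a phase of the cycle and less RNA per cell cannot be told apart.

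The promoters show how the replication and the mitosis genes differ in sequence before any signal is considered. Promoter windows from 250 bases before to 50 bases after the start were taken from RefSeq (GRCm38.p6) and were there for 38 of the 46 genes, as 42 windows. They were searched on both strands for E2F letters (TTTGGCGC, TTTCGCGC or TTTCCCGC), for the CHR letters TTTGAA and for CCAAT. The E2F letters stood in 6 of 14 windows of replication genes (42.9%), in 1 of 13 of mitosis genes (7.69%), and in 1.84% of all 32851 windows of the same length. The CHR letters stood in 2 of 14 windows of replication genes (14.3%), 10 of 13 of mitosis genes (76.9%), and 17.9% of all windows. CCAAT stood in 11 of 14 (78.6%), 12 of 13 (92.3%) and 37.4%. The median GC content was 59% in the windows of the cell cycle genes and 52.7% in all. Among the 8013 windows of all genes whose GC content lay between the quartiles of the cell cycle genes, the shares were 3.51%, 9.21% and 37.2%. A match describes letters in a window and is not a bound site.

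A few examples, 180 bases up to the start of the gene and written 5′ to 3′ on the gene's strand, show these layouts, with matches on either strand in capitals. They were chosen after the matches were seen. Mcm5 and Mcm6, subunits of the replicative helicase, carry E2F letters, in each promoter with a pair that overlaps on opposite strands (TTTCGCGCCAAA and TTTGGCGCGAAA). Cdk1, the kinase of mitotic entry, carries both E2F and CHR letters.
Mcm5, chr8:75109329-75109508, plus strand: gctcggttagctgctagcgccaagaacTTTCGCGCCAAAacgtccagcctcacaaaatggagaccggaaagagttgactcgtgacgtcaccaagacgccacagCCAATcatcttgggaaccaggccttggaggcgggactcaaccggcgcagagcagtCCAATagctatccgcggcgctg
Mcm6, chr1:128359706-128359885, minus strand: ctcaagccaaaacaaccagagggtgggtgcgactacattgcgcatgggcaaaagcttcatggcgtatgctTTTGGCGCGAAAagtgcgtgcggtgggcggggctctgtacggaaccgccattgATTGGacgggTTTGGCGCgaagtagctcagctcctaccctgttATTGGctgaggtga
Cdk1, chr10:69352913-69353092, minus strand: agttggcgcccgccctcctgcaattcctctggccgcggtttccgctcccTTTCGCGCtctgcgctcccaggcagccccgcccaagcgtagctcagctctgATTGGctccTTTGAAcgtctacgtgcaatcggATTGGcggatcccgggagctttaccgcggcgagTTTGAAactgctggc
Kif11, a spindle motor, Top2a, which untangles DNA before chromosomes part, and Cdc20, which activates the anaphase-promoting complex, carry CHR letters with CCAAT nearby and no E2F letters in the stretches shown.
Kif11, chr19:37376202-37376381, plus strand: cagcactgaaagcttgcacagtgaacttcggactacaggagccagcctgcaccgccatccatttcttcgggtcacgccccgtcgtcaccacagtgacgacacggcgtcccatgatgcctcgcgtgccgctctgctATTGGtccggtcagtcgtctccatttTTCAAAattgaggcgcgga
Top2a, chr11:99024190-99024369, minus strand: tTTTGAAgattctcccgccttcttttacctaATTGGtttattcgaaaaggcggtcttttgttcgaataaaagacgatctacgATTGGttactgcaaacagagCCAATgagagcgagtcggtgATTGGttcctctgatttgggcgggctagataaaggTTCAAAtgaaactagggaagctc
Cdc20, chr4:118437344-118437523, minus strand: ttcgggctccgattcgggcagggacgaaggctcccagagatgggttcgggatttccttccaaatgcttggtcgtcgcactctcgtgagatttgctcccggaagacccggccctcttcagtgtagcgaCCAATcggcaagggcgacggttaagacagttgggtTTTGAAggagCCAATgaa
The CHR match nearest to the start lay 15 bases before it in Cdk1, 19 in Kif11, 23 in Top2a and 18 in Cdc20. On the reverse strand the CHR letters read TTCAAA and CCAAT reads ATTGG.

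The differences of the cell cycle genes with IFN-γ were small in both lines. In AB1-HA none of the 46 genes was apart by 2-fold or by 1.5-fold between the IFN-γ and vehicle arrays, where 4.15% and 10.6% of the 13213 genes with a value were. Their differences ran from −0.58 for Ccne2 to 0.49 for Top2a, with a median of −0.11 beside −0.08 over all genes. In all, 38 of the 46 lay below 0, and 63.6% of all genes did. With cyclic loess normalization 27 of the 46 lay below 0, so the sign of these small differences depended on the scaling. Over all the alternative settings, 15 of the 46 changed sign at least once in AB1-HA and 5 in LLC, and scaling to the array median moved each LLC difference by about −0.14. In LLC 2 of the 46 genes were apart by 2-fold, Aurkb and Ccne2, both higher with IFN-γ, where 5.14% of 13423 genes were apart and 3.68% were higher. The other 44 were within 1.5-fold, which 14.4% of all genes exceeded. The median was −0.07 beside −0.06 over all genes, and 31 of the 46 lay below 0 beside 57.4% of all genes. All of the 46 but Ccne2 were well above background on all 4 arrays. Among the 11999 genes so marked, 259 were 2-fold higher and 68 lower with IFN-γ in AB1-HA, and 323 and 68 in LLC.

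**Figure D1:**
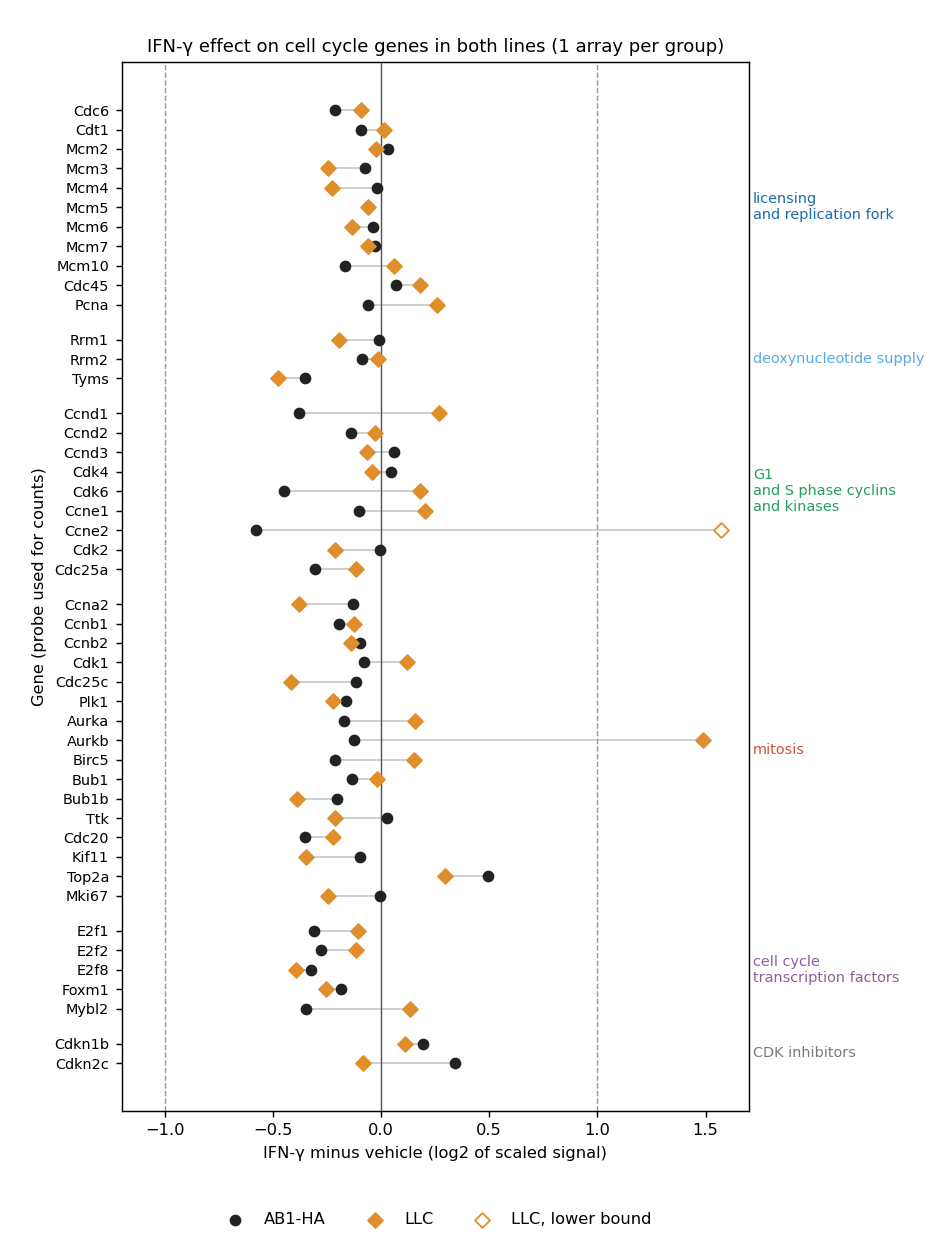
Difference between the IFN-γ and the vehicle array (horizontal axis, log2 of scaled signal) for the probe used of each of the 46 genes, by role, in AB1-HA (black circles) and LLC (orange diamonds, open where it is a lower bound), 1 array per group. Dashed lines mark 2-fold; all points lie between them except Aurkb at 1.49 and Ccne2 at 1.57 or more, both in LLC.

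The lines differed from each other far more than IFN-γ differed from vehicle, in these genes as in others. Between the vehicle arrays 5 of the 46 genes (10.9%) were apart by 2-fold, beside 32.5% of 13846 genes. Mcm3 was higher in LLC, and Foxm1, Mybl2, Aurkb and Ccne2 were lower, beside 16.4% and 16% of all genes. Between the IFN-γ arrays 5 of the 46 (10.9%) were again apart, beside 28.6% of 13903 genes: Mcm3 and Ccnd2 were higher in LLC, and Foxm1, Cdkn2c and Ttk were lower, beside 15.4% and 13.3%. At 1.5-fold, 5 genes were higher and 13 lower in LLC on the vehicle arrays, beside 26% and 27.8% of all genes (53.8% in either direction). On the IFN-γ arrays 5 were higher and 7 lower, beside 24.7% and 22.4% (47.1% in either direction).

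Both pairs of arrays are separate measurements of the difference between the lines, so they show how far it repeats under another treatment. Over the 45 genes measured on all 4 arrays, the difference on the vehicle arrays and on the IFN-γ arrays had a Pearson r of 0.85 and a Spearman rho of 0.89, beside 0.93 and 0.88 over 11999 genes. The sign was the same for 39 of the 45, with 21 genes lower and 18 higher in LLC on both pairs. Over all genes it was the same for 10128 of 11999, a similar share, with 5232 lower and 4896 higher. Genes are not independent replicates, and the points share the array's scaling. The IFN-γ effects of the lines, also from separate arrays, were nearly unrelated across these genes: r was 0.11 and rho 0.10 over 45 genes, beside 0.63 and 0.14 over 11999. The sign was the same for 29 of the 45, of which 26 were below 0 in both lines, beside 6720 of 11999 genes with the same sign and 4654 below 0 in both.

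**Figure D2:**
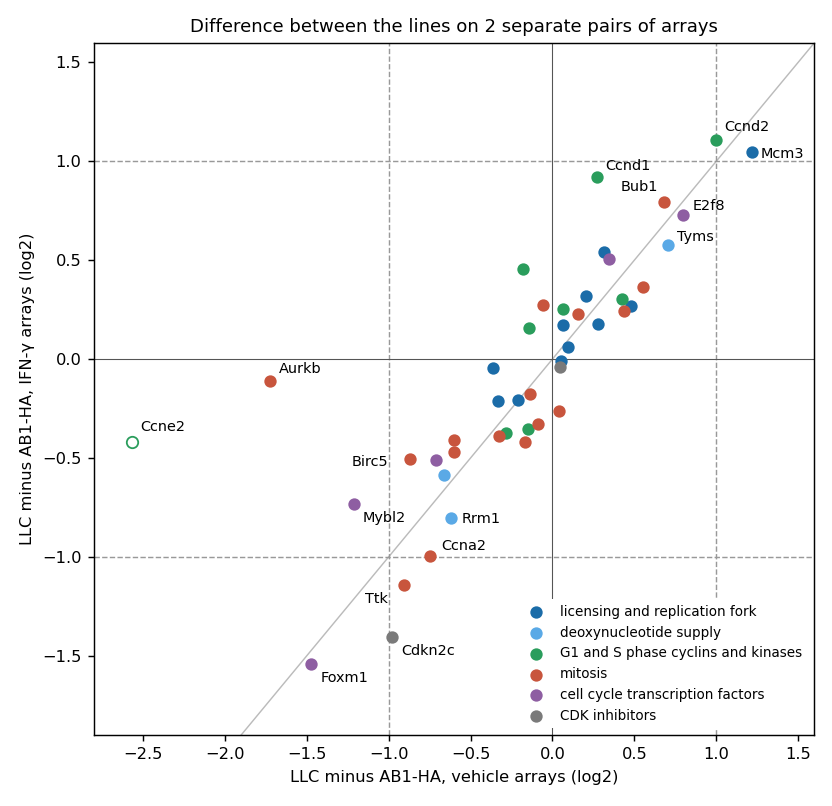
Difference between LLC and AB1-HA (log2 of scaled signal) on the vehicle arrays (horizontal axis) and on the IFN-γ arrays (vertical axis), 1 point per gene, coloured by role. Dashed lines mark 2-fold and the diagonal equality; most genes lie near the diagonal, while Aurkb and Ccne2 (open, at most −2.57 on the vehicle arrays) lie far to the left of it.

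Replication genes come first in the order of the cycle. Of the 11 genes of origin licensing and the replication fork, none was apart by 1.5-fold with IFN-γ in either line, and their differences centred on −0.06 in each line. Cdc6, which with Cdt1 loads the helicase at origins, had scaled signals of 2147 and 1854 in AB1-HA (vehicle, IFN-γ) and of 1709 and 1604 in LLC. Its second probe went the other way between the lines, with 706 and 669 in AB1-HA and 1221 and 892 in LLC. The line difference on the vehicle arrays was thus −0.33 by the brighter probe and 0.79 by the other. Cdt1 had 39809 and 37311 in AB1-HA and 41634 and 42001 in LLC, a narrow range.

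The Mcm2 to Mcm7 proteins form the hexameric helicase that opens DNA at the fork, and their probes did not move together between the lines. Mcm3 had 33148 and 31496 in AB1-HA and 77108 and 64999 in LLC. Both LLC values lay above both AB1-HA values, by 1.22 on the vehicle arrays (2.33-fold) and 1.05 on the IFN-γ arrays (2.06-fold). With scaling to the array median the last value was 0.91, short of 2-fold. Mcm4, with 44220 and 43630 in AB1-HA and 61544 and 52544 in LLC, had the next largest excess, 0.48 and 0.27. Mcm6 had 88592 and 86409 against 107427 and 97713, a difference of 0.28 and 0.18. For Mcm2 the values were 8158 and 8351 against 8455 and 8304, and for Mcm7 they were 44028 and 43110 against 47053 and 45037, so each of these subunits differed by 0.10 or less between the lines. Mcm5 was the subunit lower in LLC on both pairs of arrays, at 25434 and 24397 in AB1-HA and 22014 and 21102 in LLC, a difference of −0.21 each time. Within each line, every Mcm2 to Mcm7 value with IFN-γ lay within 0.25 of that with vehicle.

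Mcm10 and Cdc45 help to assemble and activate the helicase, and Pcna is the sliding clamp of the polymerases. Mcm10 had 8655 and 7697 in AB1-HA and 10772 and 11213 in LLC, 0.32 and 0.54 higher in LLC. Cdc45 had 385 and 404 against 445 and 504. Pcna had 75058 and 72050 in AB1-HA and 58442 and 69850 in LLC, so its LLC vehicle value was the low array and the line difference went from −0.36 to −0.04 with IFN-γ.

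The 3 genes of deoxynucleotide supply differed by line in opposite directions. Rrm1 and Rrm2 encode the subunits of ribonucleotide reductase, which makes deoxynucleotides from ribonucleotides. Rrm1 had 24548 and 24375 in AB1-HA and 15978 and 13976 in LLC, and was lower in LLC, at −0.62 and −0.80. Rrm2 had 92237 and 86666 against 58256 and 57644, lower, at −0.66 and −0.59. Both subunits were thus lower in LLC on both pairs of arrays, by about the same amount. Tyms, thymidylate synthase, had 245 and 192 in AB1-HA and 400 and 287 in LLC, and was higher in LLC by 0.70 and 0.58. Tyms was also lower with IFN-γ in both lines, at −0.35 in AB1-HA and −0.48 in LLC, where it had the lowest difference of the 46 genes.

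Among the G1 and S phase cyclins and kinases, Ccnd2 differed between the lines on both pairs of arrays, and Ccnd1 mainly on the IFN-γ arrays. Ccnd2, a D-type cyclin, had 7328 and 6658 in AB1-HA and 14623 and 14355 in LLC. It was just short of 2-fold higher in LLC on the vehicle arrays and 2.16-fold higher on the IFN-γ arrays. With scaling to the array median it was just past 2-fold on the vehicle arrays and at 0.98 on the IFN-γ arrays. Ccnd1 had 36680 and 28166 in AB1-HA and 44238 and 53301 in LLC. Its value with IFN-γ was the lower of the pair in AB1-HA (−0.38) and the higher in LLC (0.27), and the line difference was 0.27 on the vehicle arrays and 0.92 on the IFN-γ arrays. Ccnd3 was higher in LLC by both of its probes, by 0.43 and 0.37 on the vehicle arrays and 0.30 and 0.53 on the IFN-γ arrays.

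Cdk4, the kinase partner of these cyclins, was lower in LLC by all 3 of its probes, at −0.28, −0.56 and −0.45 on the vehicle arrays (0.02 for the brightest with quantile normalization) and −0.37, −0.51 and −0.42 on the IFN-γ arrays. Cdk6, which also binds D-type cyclins, had 220 and 161 in AB1-HA and 194 and 220 in LLC. Like Ccnd1 it was lower with IFN-γ in AB1-HA (−0.45) and higher in LLC (0.18). The effects of the lines thus differed by 0.63 for Cdk6 and 0.65 for Ccnd1, and no test of either difference was possible.

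Cyclin E drives Cdk2 at the start of S phase. Ccne1 had 9987 and 9307 in AB1-HA and 9039 and 10386 in LLC, and its dimmer probe had 263 and 223 against 174 and 207. Both probes were lower with IFN-γ in AB1-HA (−0.10 and −0.24) and higher in LLC (0.20 and 0.25). Ccne2 lay near background. Its scaled signals were 37.7 and 25.3 in AB1-HA, 18.9 in LLC with IFN-γ and 4.84 in LLC with vehicle, where the probe was not well above background. Set against the dimmest probe that array still marked as well above background, it was at least 2.98-fold higher with IFN-γ in LLC and at least 5.94-fold lower in LLC than in AB1-HA on the vehicle arrays. In AB1-HA it was lower with IFN-γ, at −0.58, the lowest value of the 46 genes there. With normexp background correction, which adds a fixed offset to every signal, the AB1-HA difference was 0.072, the LLC difference 0.23 and that between the lines −0.43. Cdk2, with 1447 and 1442 against 1307 and 1128, and Cdc25a, the phosphatase that activates it, with 4540 and 3674 against 4747 and 4377, differed by 0.35 or less in each comparison.

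The 16 genes of mitosis had a median difference with IFN-γ of −0.13 in AB1-HA and −0.18 in LLC. Of the 16, 14 lay below 0 in AB1-HA and 11 in LLC, beside 63.6% and 57.4% of all genes. Between the lines the median was −0.15 on the vehicle arrays and −0.30 on the IFN-γ arrays. Each time 11 of 16 were lower in LLC, beside 52.5% and 48.6% of all genes. Aurkb, the kinase of the chromosomal passenger complex, had scaled signals of 259 and 237 in AB1-HA and of 78.5 and 220 in LLC. The LLC vehicle array was thus low and the other 3 arrays lay close together. IFN-γ against vehicle was 1.49 in LLC (2.80-fold) and −0.13 in AB1-HA, and the effects of the lines differed by 1.62 (3.06-fold), where 4.23% of 11999 genes were 2-fold apart. With normexp background correction the LLC difference was 0.99, just short of 2-fold. LLC lay below AB1-HA, at −1.72 on the vehicle arrays (3.30-fold) and at −0.11 on the IFN-γ arrays.

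Birc5, survivin, is another subunit of the same complex. It was also lowest on the LLC vehicle array by all 3 probes. Unlike Aurkb, it had LLC values with IFN-γ that stayed well below both AB1-HA values. Its 3 probes were lower in LLC, at −0.87, −1.12 and −1.15 on the vehicle arrays and −0.51, −0.78 and −0.83 on the IFN-γ arrays. The brightest had 130939 and 113034 in AB1-HA and 71563 and 79594 in LLC. With IFN-γ the 3 probes were lower in AB1-HA (−0.21, −0.20 and −0.15) and at 0.15, 0.15 and 0.16 in LLC, where scaling to the array median left them near 0. Aurka, the centrosomal Aurora kinase, had 26686 and 23664 in AB1-HA and 25663 and 28580 in LLC, −0.17 and 0.16 with IFN-γ.

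The probes of Cdk1 gave different answers. The brightest had 18802 and 17816 in AB1-HA and 12373 and 13439 in LLC, lower in LLC, at −0.60 and −0.41. A second probe had 844 and 769 in AB1-HA and 219 and 597 in LLC. By that probe alone Cdk1 was 2.72-fold higher with IFN-γ in LLC, and 3.85-fold lower in LLC than in AB1-HA on the vehicle arrays. The dimmest probe had 68.1 and 65.7 against 33.8 and 30.4, about 2-fold lower in LLC on both pairs of arrays (−1.01 and −1.11) and −0.15 with IFN-γ in LLC. Its line differences were −0.84 and −0.31 with normexp, and −0.69 on the vehicle arrays with cyclic loess. All 3 probes were lower in LLC than in AB1-HA, and 1 of the 3 was more than 2-fold higher with IFN-γ in LLC. As with Aurkb, the low array of that probe was LLC with vehicle.

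Ccna2, which encodes the A-type cyclin of S phase and G2, had 34822 and 31809 in AB1-HA and 20770 and 15977 in LLC. It was lower in LLC, at −0.75 on the vehicle arrays and at −0.99 on the IFN-γ arrays (1.99-fold), and lower with IFN-γ, at −0.13 in AB1-HA and −0.38 in LLC. Ccnb1 and Ccnb2, the B-type cyclins that pair with Cdk1, differed less. The brightest probe of Ccnb1 had 17277 and 15099 against 19287 and 17688, and Ccnb2 had 36256 and 33842 against 32988 and 29986. The 3 probes of Ccnb1 split by sign between the lines on the vehicle arrays, at 0.16, −0.05 and −0.12. With IFN-γ all 3 lay between −0.29 and −0.04 in the lines.

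The spindle checkpoint kinases, which delay anaphase until chromosomes are attached, ran in opposite directions between the lines. Bub1 had 4935 and 4500 in AB1-HA and 7925 and 7814 in LLC, higher in LLC by 0.68 and 0.80. Its repeat spots had SDs of 0.050 and 0.047 for these differences. Bub1b had 4164 and 3615 against 6106 and 4662, higher by 0.55 and 0.37. Ttk, the kinase that starts the same checkpoint, had 609 and 620 in AB1-HA and 326 and 281 in LLC, lower, at −0.90 and −1.14, which is 1.87-fold and 2.21-fold. With normexp the latter was −0.70. For each of the 3 genes, both LLC values lay on the same side of both AB1-HA values.

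Kinases, motors and other effectors of mitosis were mostly slightly lower with IFN-γ. Plk1, which acts at centrosomes and kinetochores, had 41832 and 37345 in AB1-HA and 33318 and 28566 in LLC, lower with IFN-γ, at −0.16 and −0.22. Cdc20 had 62423 and 48949 against 41174 and 35335, lower with IFN-γ, at −0.35 and −0.22 and lower in LLC, at −0.60 and −0.47. Kif11 had 1706 and 1596 against 1520 and 1193, and Cdc25c, the phosphatase that activates Cdk1, had 1210 and 1114 against 1241 and 929. In LLC these genes were lower with IFN-γ, at −0.35 and −0.42. Mki67, the gene of the Ki-67 protein that coats mitotic chromosomes, had 30174 and 30027 against 28371 and 23906 by its brighter probe. With IFN-γ its 2 probes lay at −0.01 and −0.08 in AB1-HA and at −0.25 and −0.31 in LLC.

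Top2a stood at the other end. Its scaled signals were 6786 and 9546 in AB1-HA and 9188 and 11286 in LLC. It was higher with IFN-γ in both lines, by 0.49 in AB1-HA (1.41-fold), the highest difference of the 46 genes there, and by 0.30 in LLC. Of the 45 genes measured on all 4 arrays, 3 were higher with IFN-γ in both lines, beside 2066 of 11999 over all genes. They were Top2a, Cdc45 and Cdkn1b, none by as much as 1.5-fold. Cdkn1b was at −0.04 in LLC with scaling to the array median.

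The 5 cell cycle transcription factors were all lower with IFN-γ in AB1-HA, with a median of −0.31, where 63.6% of all genes were lower. In LLC 4 of 5 were lower with IFN-γ, with a median of −0.12, beside 57.4% of all genes. Mybl2, the other factor, fell from 0.13 to −0.01 in LLC under an alternative setting. E2f1, an activator of S phase genes, had 5991 and 4835 in AB1-HA and 3665 and 3399 in LLC, lower in LLC, at −0.71 and −0.51. E2f2, a related activator, had 3319 and 2735 against 4223 and 3891, and E2f8, an atypical E2F that represses, had 8410 and 6721 against 14641 and 11130. Both were higher in LLC, by 0.35 and 0.51 for E2f2 and by 0.80 and 0.73 for E2f8. E2f8 was lower with IFN-γ in both lines, at −0.32 and −0.40.

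Foxm1 and Mybl2 (B-Myb), the activators of G2 and mitosis genes, were lower in LLC. Foxm1 had 7074 and 6214 in AB1-HA and 2550 and 2137 in LLC by its brighter probe, and 427 and 358 against 139 and 131 by the other. LLC lay below AB1-HA, at −1.47 and −1.62 on the vehicle arrays and at −1.54 and −1.45 on the IFN-γ arrays, so both probes on both pairs of arrays were past 2-fold. With normexp the dimmer probe gave −0.89 and −0.71, short of 2-fold. Foxm1 was the 1 gene of the 46 that was 2-fold lower in LLC on both pairs, and Mcm3 the 1 that was 2-fold higher. The probes of Mybl2 did not agree on the lines. The brighter had 36422 and 28629 in AB1-HA and 15718 and 17234 in LLC, lower in LLC, at −1.21 and −0.73, and the other had 6993 and 5732 against 6697 and 6161, at −0.06 and 0.10. With IFN-γ both probes were lower in AB1-HA, at −0.35 and −0.29, and in LLC they lay at 0.13 and −0.12.

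**Figure D3:**
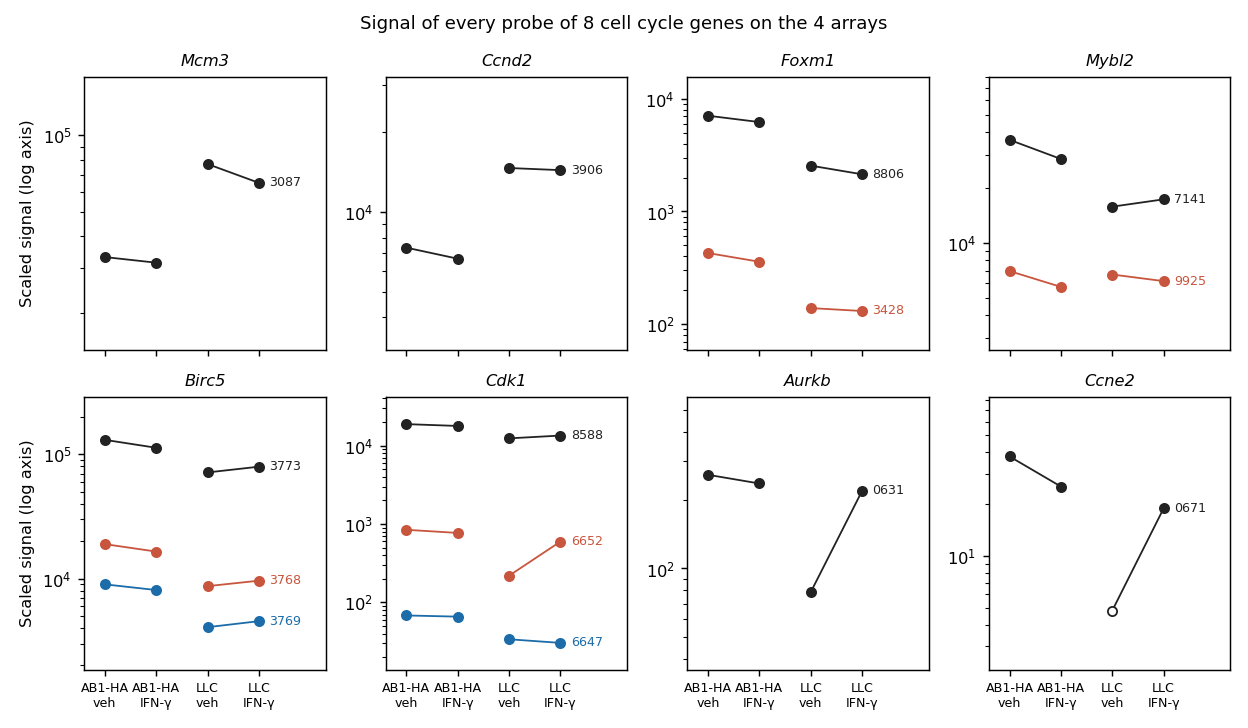
Scaled signal (vertical axes, log scale, each panel with its own range) of every probe of 8 cell cycle genes on the 4 arrays, with lines joining vehicle to IFN-γ within a cell line, the last 4 characters of each probe's identifier beside it, and an open point where the probe was not well above background. Both Foxm1 probes lie lower in LLC, the Mybl2 and Cdk1 probes are unlike each other, and Aurkb, Ccne2 and a Cdk1 probe are low on the LLC vehicle array.

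The set holds a pair of CDK inhibitors, proteins that hold the cyclin-dependent kinases in check. Cdkn1b (p27) had 5429 and 6207 in AB1-HA and 5594 and 6036 in LLC, 0.19 and 0.11 higher with IFN-γ, the latter at −0.04 with scaling to the array median. Cdkn2c (p18), an inhibitor of Cdk4 and Cdk6, had 2786 and 3530 in AB1-HA and 1412 and 1331 in LLC. It was higher with IFN-γ in AB1-HA by 0.34 and at −0.09 in LLC. LLC lay below AB1-HA, at −0.98 on the vehicle arrays (1.97-fold) and at −1.41 on the IFN-γ arrays (2.65-fold).

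Set side by side, the 14 replication genes (licensing, fork and deoxynucleotide supply) and the 16 mitosis genes lay close together under IFN-γ and further apart between the lines. With IFN-γ the replication median was −0.06 in AB1-HA and −0.06 in LLC, which is 0.07 and 0.11 above the mitosis median. Between the lines the replication median was 0.08 on the vehicle arrays and 0.12 on the IFN-γ arrays, 0.23 and 0.41 above that of mitosis. The gap kept its sign under each of the alternative settings tried, between 0.19 and 0.30 on the vehicle arrays and between 0.37 and 0.47 on the IFN-γ arrays. The replication median itself lay between −0.01 and 0.22 on the IFN-γ arrays, so the direction of replication genes alone depended on the scaling. It did not recur on both pairs in the further genes of these pathways given below.

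**Figure D4:**
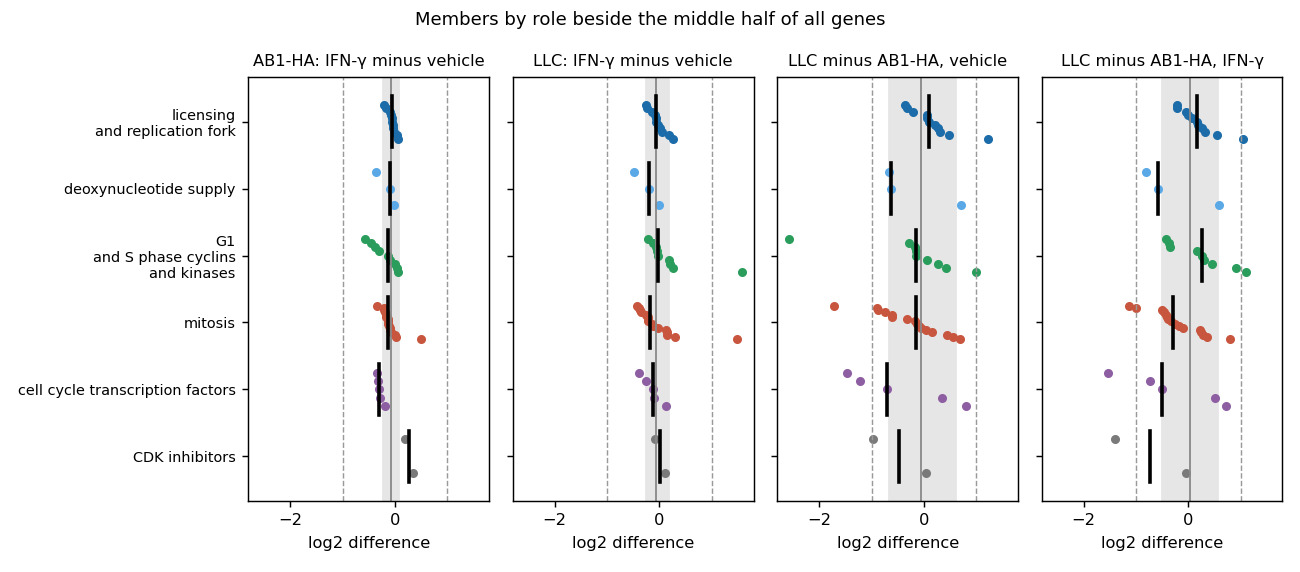
Differences of the cell cycle genes (points, log2 of scaled signal) by role in 4 comparisons, with the median of each role as a black bar and the range between the quartiles of all genes in grey. Bounds for Ccne2 are drawn at their limit and dashed lines mark 2-fold. With IFN-γ nearly all points lie near 0, and between the lines the mitosis genes and transcription factors reach further down than the licensing and fork genes.

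Genes with CHR letters in a window had a median difference with IFN-γ of −0.10 in AB1-HA (14 genes) and −0.18 in LLC, and the 24 without had −0.09 and −0.06. Genes with E2F letters (10 genes) had −0.08 and −0.10, and the 28 without had −0.10 and −0.05. Between the lines on the IFN-γ arrays the medians were 0.12 with and −0.04 without E2F letters, and −0.09 with and 0.01 without CHR letters. On the vehicle arrays they were 0.06 with and −0.14 without E2F letters, and −0.07 with and −0.15 without CHR letters, so the order for CHR letters was the opposite there. With CHR letters single genes ran from −1.14 to 0.73 on the IFN-γ arrays. Motif and role overlap, so their parts cannot be told apart. Aurkb, Ccne2, Foxm1 and Ccnd2, which set the lines apart, had no window in the table.

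Other genes of the same pathways were drawn from 3 lists that do not repeat the 46 genes. With IFN-γ, none of 35 further replication genes, 53 further mitosis genes and 35 further genes of G1 control with a value was 2-fold apart in either line. Over all genes the shares apart were 4.15% and 5.14%. The medians of the lists were −0.05, −0.09 and −0.10 in AB1-HA and 0.02, −0.16 and −0.05 in LLC. Between the lines, 3 replication genes were higher and 4 lower in LLC on the vehicle arrays, as were 2 and 4 of the mitosis genes and 4 and 4 of the G1 control genes. On the IFN-γ arrays the counts were 3 and 3, 0 and 6, and 4 and 5. The shares apart were 20.0%, 11.3% and 22.9% of the lists on the vehicle arrays and 17.1%, 11.3% and 25.7% on the IFN-γ arrays, below the 32.5% and 28.6% of all genes. The median of the further replication genes between the lines was −0.19 on the vehicle arrays and −0.13 on the IFN-γ arrays, and that of the further mitosis genes −0.10 and −0.19. The replication genes of these lists thus lay below the mitosis genes on the vehicle arrays and above them on the IFN-γ arrays, unlike the gap in the same direction among the 46 genes.

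Prim2, the gene of a primase subunit, gave the widest of these differences. Its scaled signals were 620 and 649 in AB1-HA and 6221 and 7061 in LLC, higher in LLC by 3.33 and 3.44. Pole2, a polymerase subunit, was higher in LLC by 1.11 and 1.25. Cdkn1a (p21), a CDK inhibitor, was higher by 1.29 and 1.33 (1.81 and 2.43 by its second probe). Myc, a growth regulator, was higher by 2.01 and 1.97, and E2f6, a repressor E2F, by 1.22 and 1.32. Lower in LLC were Gins2 of the active helicase, at −1.49 and −1.14, and Rfc3 of the clamp loader, at −1.39 and −1.15. Of the mitosis list, Ska1 at kinetochores was lower, at −1.67 and −1.05, Hmmr at spindles, at −1.54 and −1.40, and Pttg1 (securin), at −1.44 and −1.57 (−0.73 and −0.83 by its second probe). Rb1, the retinoblastoma protein gene, was lower, at −1.10 and −1.48. Its relative Rbl1 was lower, at −1.21 and −1.37 (−1.55 and −1.40 by its second probe). The differences had the same sign on the vehicle and on the IFN-γ arrays. Ccng2 (−0.73 and −1.31), Depdc1a (−0.90 and −1.23), Cdca3 (−0.83 and −1.10) and Ccnh (0.75 and 1.08) were past 2-fold on the IFN-γ arrays and not on the vehicle arrays.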

How the data were processed

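The deposited intensity values of the 4 single-colour arrays are scanner output, with the background of each spot subtracted by Agilent Feature Extraction (version 10.7.1.1, per the file headers). Log2 values in the series' value table, deposited by the authors, served as an alternative; no source used here says how that table was made. Its columns had a correlation of 0.999 with log2 signals scaled to the 75th percentile and centred per probe, with medians of 0.11, −0.08, −0.13 and 0.08. Its scale, centring and direction rest on that match alone.

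From the processed signal, the log2 of each array's 75th percentile over its gene probes (1380 to 1598 intensity units) was subtracted from every log2 value. Control spots and 166 to 201 outlier spots per array were left out, and repeat spots were averaged. Identifiers were matched without version to a RefSeq gene table of GRCm38.p6, which named 26575 of 39429 probes; the other 12854 stayed out of gene counts. For a gene with several probes the brightest probe well above background entered the counts, and each probe is given apart. Where only 1 of 2 arrays marked a probe as well above background, its difference is a bound. The dim side was set to its own signal or, if higher, to the lowest signal well above background (6.35 to 8.66 as scaled signal).

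A difference is that of 2 arrays. With 1 array per group there is neither a test nor a p-value. The cell cycle genes, the 3 lists of further genes and the comparisons were chosen with earlier results of these data known. Genes given in full were those at least 2-fold apart and the 5 largest differences per direction. Of the further lists, up to the 6 largest per direction and comparison could be named; 1 of them is not reported here. The steps were run on simulated data, with planted changes larger than 2-fold and spot noise only. That run checks the code and says nothing about variation of culture, RNA or labelling. Alternatives were 3 other scalings (array median, quantile, cyclic loess), normexp background correction with offset 50 on median spot signals, the authors' table, no background filter or a stricter one, averaging a gene's probes, and keeping outlier spots. Software was Python 3.11.15 (pandas 2.3.3, numpy 2.4.6, matplotlib 3.10.9) and R 4.3.3 (limma 3.58.1).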

Additional observations from a re-analysis of the deposited data

Results flagged for a closer look

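Probes of 3 genes moved in opposite directions with IFN-γ in the lines and lay at least 2-fold apart; with 1 array per group these differences between the lines were not tested. The IFN-γ effect in LLC minus that in AB1-HA was 1.62 for Aurkb, 1.58 for the second probe of Cdk1 and at least 2.15 for Ccne2. In each case the LLC vehicle array held the low value. The brightest probe of Cdk1 gave 0.20 and the dimmest probe −0.10. In all, 21 of the 60 probes had opposite signs in the lines, and the other 18 were less than 2-fold apart. Over all genes, 5279 of 11999 had opposite signs.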

How the results depend on the processing

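No paired analysis was possible because each group has 1 array, and for the same reason no replicate could be left out. No gene called at 2-fold changed direction under the alternatives tried. With scaling to the array median, the median of the 46 genes was −0.22 for IFN-γ in LLC, −0.17 between the lines on the IFN-γ arrays and −0.17 for the difference of the effects. With quantile normalization it was −0.12 in LLC, 0.047 between the lines on the vehicle arrays and −0.11 for the difference of the effects. With cyclic loess it was −0.032 for IFN-γ in AB1-HA, 0.033 between the lines on the vehicle arrays and −0.16 for the difference of the effects, and with the mean over probes it was −0.029 between the lines on the vehicle arrays. The gap between replication and mitosis was 0.30 on the vehicle arrays with the mean over probes and 0.47 on the IFN-γ arrays with quantile normalization. The count of genes 2-fold higher with IFN-γ in LLC was 0 with normexp and 1 over genes well above background on all 4 arrays. The count higher in LLC on the vehicle arrays was 2 with scaling to the array median, with quantile, with cyclic loess and with the authors' table, where Ccnd2 joined Mcm3. On the IFN-γ arrays it was 0 with scaling to the array median, and without a background filter 2 genes had an effect at least 2-fold higher in LLC than in AB1-HA. Over all genes, scaling to the array median moved the median by −0.14 in LLC, −0.13 between the lines on the IFN-γ arrays and −0.14 for the difference of effects, and cyclic loess by 0.15 between the lines on the vehicle arrays and −0.12 for the difference of effects. Of all genes called in LLC, 71.6% were higher with IFN-γ, and 55.5%, 60.0% and 55.7% with array median, quantile and cyclic loess scaling; for the difference of effects the shares were 60.0%, and 39.9%, 47.0% and 36.0%. Signs held in every setting for 31 of 46 genes in AB1-HA, 41 in LLC, and 39 and 41 between the lines on the vehicle and IFN-γ arrays. The mean over probes put Cdk1 at −1.19 and Birc5 at −1.05 between the lines on the vehicle arrays and Mybl2 at −0.64. The causes were not tested. Signal over background limits Ccne2, whose differences on the LLC vehicle array are bounds.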

Other observations

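Of the INK4 family of inhibitors, Cdkn2a and Cdkn2b were read at background: no array marked either probe of these genes as well above background. Cdkn2d, another INK4 gene, had scaled signals of 24514 and 22562 in AB1-HA (vehicle, IFN-γ) and of 10415 and 10671 in LLC. It was lower in LLC, at −1.23 and −1.08. Cdkn2c was lower in LLC as well, as given above.

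Ccng2, an atypical cyclin often linked to cell cycle exit, had scaled signals of 936 and 1481 in AB1-HA and of 563 and 597 in LLC. It was 0.66 higher with IFN-γ in AB1-HA (1.58-fold) and 0.08 higher in LLC, and was picked out after its values were seen.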
